A study of Mus musculus with 6 samples.

Results

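The netrins and their receptors were followed through autonomic ganglia of newborn mice. The 10 genes were taken by symbol from the feature tables, among 32285 genes listed there, and all 10 were found. They comprise the secreted netrins *Ntn1*, *Ntn3* and *Ntn4*, the membrane-anchored netrin-G *Ntng1*, and the receptors *Dcc*, *Neo1*, *Unc5a*, *Unc5b*, *Unc5c* and *Unc5d*. Single cells came from whole ganglia of mouse pups at P5 that carried a Cre transgene and the Cre-dependent reporter *RosatdT*. The stellate, sphenopalatine and pelvic_1 libraries were made in sequencing round 1, and the coeliac, lumbar and pelvic_2 libraries in round 2. The genotype was shared by all 6 libraries, and no untreated or mutant group was compared. The ganglia were dissociated whole, so cells without Cre were also captured.

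Netrins are laminin-related cues that steer growing axons and migrating cells. DCC and its paralogue neogenin (*Neo1*) mostly mediate attraction to netrin-1, and the UNC5 receptors mediate repulsion, alone or together with DCC. UNC5B is also the netrin receptor of blood vessels, and netrin-4 is a component of basement membranes. Netrin-G1 is tethered to the axon surface and binds its own partner NGL-1 (*Lrrc4c*) rather than DCC. Neogenin also binds the RGM proteins, and the UNC5 receptors bind FLRT proteins.

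The promoters of *Unc5b* and *Neo1* are shown because these genes had opposite spreads over the cell classes. *Unc5b* was most abundant in endothelial-like cells, and *Neo1* was present in every class. The RefSeq promoter table of GRCm38.p6 held 7 of the 10 genes. The 250 bases before the start are printed 5′ to 3′ on the minus strand, with every CG pair in capitals. They lie at chr10:60831582-60831831 for *Unc5b* and at chr9:59036442-59036691 for *Neo1*.
Unc5b: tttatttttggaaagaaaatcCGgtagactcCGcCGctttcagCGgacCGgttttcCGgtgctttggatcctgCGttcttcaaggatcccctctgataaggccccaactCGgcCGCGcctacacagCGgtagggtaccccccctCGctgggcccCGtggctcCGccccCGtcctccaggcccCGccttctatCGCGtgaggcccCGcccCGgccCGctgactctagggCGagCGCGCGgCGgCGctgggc
Neo1: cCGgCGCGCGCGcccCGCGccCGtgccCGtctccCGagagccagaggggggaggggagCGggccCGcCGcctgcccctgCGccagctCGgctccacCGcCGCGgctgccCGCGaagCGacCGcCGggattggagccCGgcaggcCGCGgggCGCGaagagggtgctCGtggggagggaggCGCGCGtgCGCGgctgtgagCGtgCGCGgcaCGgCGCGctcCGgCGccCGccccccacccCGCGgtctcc
The *Unc5b* window held 27 CG pairs, a number reached or exceeded by 8.56% of 32851 such windows. The *Neo1* window held 45, reached by 0.405% of windows. At least 1 CG pair was found in 92.1% of all windows, with a median of 6. The letters GGAA, the core that ETS factors bind, were searched on both strands, TTCC being the same letters on the other strand. They occurred 2 times before *Unc5b* and 0 times before *Neo1*, against at least 1 time in 93.4% of windows. These counts describe the letters of the windows only.

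The loci were placed on GRCm38 with the GENCODE M21 annotation, where all 10 identifiers were found. *Ntn1* (ENSMUSG00000020902) lies on chromosome 11 at 68209364 to 68400823. *Ntn3* (ENSMUSG00000117406) lies on chromosome 17 at 24203848 to 24209531, *Ntn4* (ENSMUSG00000020019) on chromosome 10 at 93640681 to 93747207 and *Ntng1* (ENSMUSG00000059857) on chromosome 3 at 109780040 to 110144011. *Dcc* (ENSMUSG00000060534) lies on chromosome 18 at 71253634 to 72351069 and *Neo1* (ENSMUSG00000032340) on chromosome 9 at 58874687 to 59036441. *Unc5a* (ENSMUSG00000025876) lies on chromosome 13 at 54949411 to 55006018, *Unc5b* (ENSMUSG00000020099) on chromosome 10 at 60762593 to 60831581, *Unc5c* (ENSMUSG00000059921) on chromosome 3 at 141465216 to 141834924 and *Unc5d* (ENSMUSG00000063626) on chromosome 8 at 28646717 to 29219636. The annotated end of *Ntn3* overlaps *Tbc1d24* on the same strand, from 24203848 to 24205562, so reads of the shared stretch cannot be assigned with certainty and the counts of *Ntn3* are uncertain.

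After filtering, 21442 cells were retained, between 1427 in the coeliac and 7219 in the stellate library. Before filtering, library totals over all droplets ranged from 39353313 to 113352559 UMIs (unique molecular identifiers, each marking 1 captured RNA). Cells over the study's threshold for *Stmn2*, *Stmn3*, *Gap43* and *Tubb3* and under a glial limit were taken as neurons, 7052 in all. Glial cells numbered 8468 and were taken by their level of glial markers, among them *Ttyh1*, *Fabp7*, *Cryab* and *Mal*, though 1342 of them fell into clusters that carried another name, most of them in 1 cluster led by haemoglobin genes, of whose 1148 cells 1048 came from pelvic_1. Clustering of the non-neuronal cells gave 1769 fibroblast-like, 705 endothelial-like, 586 mural-like and 600 macrophage-like cells. Libraries shared up to 49 cell barcodes with another library, at most 1.06% of the smaller one. The median depth of neurons ranged from 26651 UMIs in the stellate to 108598 in pelvic_2. Because only the pelvic ganglion had 2 libraries, ganglia were compared within a round and without a test. The gap between the pelvic libraries, given beside some differences, is 1 pair from different rounds and does not measure replicate spread. It ran from 1.03-fold for *Dcc* to 3.72-fold for *Ntn4*. The level of a gene in a class is its UMIs relative to all UMIs of that class, scaled to the same total in every class (CPM), given with the 95% Poisson interval, which covers counting error only. *Stmn2* in glial cells amounted to between 3.01% and 19.0% of its level in neurons of the same library. This share is only a rough guide to neuronal RNA among glial UMIs. Glial cells had to lie at or below the neuronal threshold, which includes *Stmn2*. The share is thus partly set by the selection and may be too low. The part of neuronal RNA in the glial values below was not tested.

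*Ntn1*, encoding netrin-1, the founding ligand of DCC, was abundant in the neurons of 1 ganglion, the sphenopalatine. Its level was 47.9 CPM (46.3 to 49.5) in sphenopalatine neurons, from 3639 UMIs. It was 0.101 CPM in stellate neurons and 0.273 CPM in those of pelvic_1, from 8 and 10 UMIs. In round 2 it was 0 CPM in coeliac, 0.0691 CPM in lumbar and 0.108 CPM in pelvic_2 neurons. The sphenopalatine was thus 475 times the stellate (95% interval 241 to 1101) and 176 times pelvic_1 (95.4 to 366), while the pelvic libraries differed 2.52-fold from each other. These ratios rest on few UMIs outside the sphenopalatine. With simulated doublets removed the levels were 46.9 CPM in the sphenopalatine, 0.0639 CPM in the stellate, 0.0953 CPM in pelvic_1 and 0.0921 CPM in pelvic_2, so that the gap to the stellate and to pelvic_1 was wider and that between the pelvic libraries smaller. Of the sphenopalatine neurons, 68.0% had an *Ntn1* UMI (Wilson interval 65.9 to 70.1%) at a median depth of 38127 UMIs, and 46.5% had at least 2. The share was 0.294% in stellate neurons at 26651 UMIs. After thinning to 4000 UMIs per neuron it was 16.8% in the sphenopalatine and at most 0.126% in the other libraries. For the coeliac, 0 of 17981802 neuronal UMIs were of *Ntn1*, which allows up to 0.167 CPM by a limit of 3 counts, beside an upper Poisson bound of 0.205 CPM. In the sphenopalatine 3.95% of glial cells had a UMI, at a median of 4725 UMIs.

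Outside neurons, *Ntn1* was present in all ganglia. Fibroblast-like cells had 13.9, 45.3 and 41.9 CPM in the stellate, sphenopalatine and pelvic_1 libraries and 21.5, 23.7 and 21.3 CPM in the coeliac, lumbar and pelvic_2 libraries. Glial cells had between 4.83 and 9.31 CPM. In macrophage-like cells it was found in 2 of 109 cells of the sphenopalatine and in none of the other libraries. The fibroblast-like cells therefore exceeded the neurons in 5 of 6 libraries, and in the sphenopalatine the intervals of the classes overlapped.

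*Ntn3*, a less studied secreted netrin, was found at similar levels in neurons of the ganglia of a round. It was 11.9, 15.3 and 14.1 CPM in stellate, sphenopalatine and pelvic_1 neurons, and 6.06, 7.41 and 7.80 CPM in coeliac, lumbar and pelvic_2 neurons. No difference within a round reached the 1.80-fold gap between the pelvic libraries, which came from different rounds.

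*Ntn4*, encoding the basement membrane netrin-4, was low in neurons. It was 0.441, 1.03 and 0.627 CPM in stellate, sphenopalatine and pelvic_1 neurons. In round 2 it was 2.89, 6.52 and 2.33 CPM in coeliac, lumbar and pelvic_2 neurons. Lumbar neurons were 2.26 times the coeliac ones (1.69 to 3.06), beside a 3.72-fold gap between the pelvic libraries, which came from different rounds. The highest value of any class was 36.1 CPM in mural-like cells of pelvic_2, against 0 to 8.06 CPM in mural-like cells of the other libraries.

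*Ntng1*, the membrane-anchored netrin-G1, was highest in sympathetic neurons of each round. It was 64.5 CPM in stellate, 18.0 CPM in sphenopalatine and 29.1 CPM in pelvic_1 neurons, so that the order in round 1 was stellate, pelvic, sphenopalatine. In round 2 it was 51.8, 50.8 and 39.8 CPM in coeliac, lumbar and pelvic_2 neurons, and the coeliac and lumbar levels did not differ beyond counting error. Pelvic_2 was at 0.7685 of the coeliac and 0.7838 of the lumbar level, gaps smaller than the 1.37-fold one between the pelvic libraries. Of the 6 differences within a round, 3 were larger than that gap. A UMI was found in 65.8% of stellate and 17.8% of sphenopalatine neurons. Glial cells also carried *Ntng1*, at 17.0 to 53.7 CPM, and fibroblast-like cells at 5.03 to 61.4 CPM. The glial level exceeded the neuronal level in the sphenopalatine and pelvic_2 libraries, at 118% and 135% of it, where that of *Stmn2* was 12.8% and 3.01%. The fibroblast-like cells of pelvic_1 and pelvic_2 differed 12.2-fold in *Ntng1* (6.39 to 26.9), with 9 UMIs in pelvic_1. They came from different clusters. Pelvic_1 had 295 cells and pelvic_2 had 4 in a cluster led by *Mfap4*. Clusters led by *Foxd1* and *Fmo2* held 138 and 232 cells of pelvic_2 and 0 of pelvic_1. Cluster, library and round therefore cannot be told apart here.

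**Figure D1:**
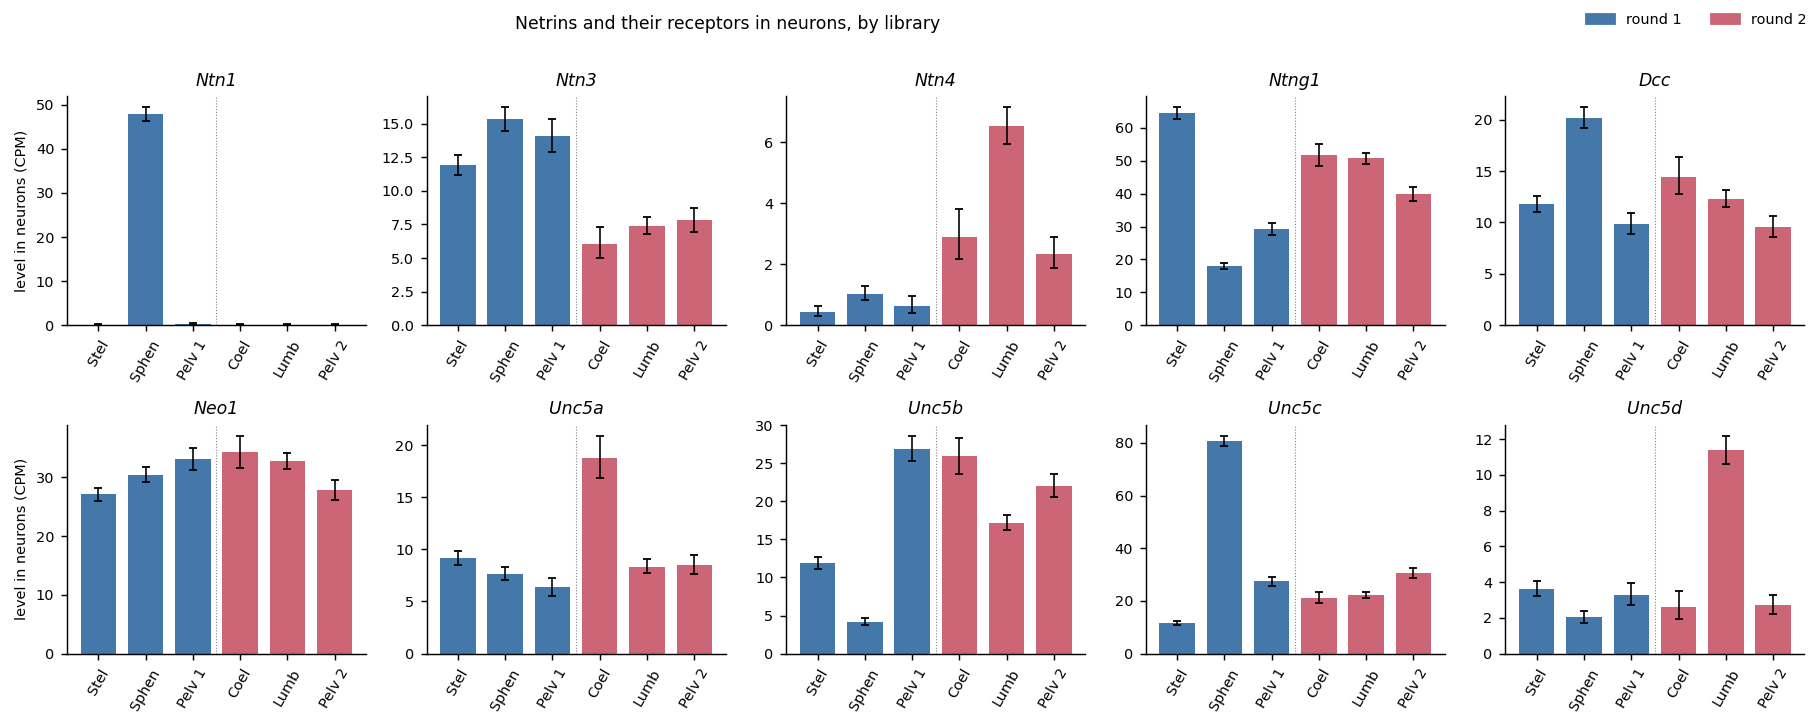
Levels of the 10 genes in neurons (CPM, axis from 0 and scaled per gene) in each library, with 95% Poisson intervals, the dotted line parting the rounds. *Ntn1* stands at 47.9 CPM in sphenopalatine neurons and at or below 0.273 CPM elsewhere, and *Unc5c* peaks in the same library at 80.7 CPM.

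*Dcc*, encoding the attractive netrin receptor, was mainly neuronal. It was 11.8, 20.2 and 9.84 CPM in stellate, sphenopalatine and pelvic_1 neurons, and 14.5, 12.3 and 9.59 CPM in coeliac, lumbar and pelvic_2 neurons. The pelvic libraries were 1.03-fold apart (mean 9.71 ± 0.178, SD, n = 2), and all 6 differences within a round were larger, up to 2.05-fold between the sphenopalatine and pelvic_1. That gap was the smallest among the 10 genes and rests on 1 pair of libraries from different rounds. Glial cells had 0.720 to 3.64 CPM.

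*Neo1*, encoding neogenin, was the most even of the receptors. Its level in neurons was 27.1, 30.5 and 33.1 CPM in round 1 and 34.3, 32.7 and 27.8 CPM in round 2, in the same order of ganglia. The largest difference within a round was 1.24-fold, near the 1.19-fold gap between the pelvic libraries. *Neo1* was found in every class, with 18.9 to 34.7 CPM in glial, 17.8 to 50.3 CPM in fibroblast-like, 13.7 to 30.4 CPM in endothelial-like and 15.8 to 85.0 CPM in mural-like cells. It was lowest in macrophage-like cells, at 3.00 to 8.06 CPM, below every other class of the same library. These values rest on 27 UMIs over the 6 libraries.

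*Unc5a*, a repulsive receptor of neurons, was highest in the coeliac. Its level was 9.20, 7.64 and 6.35 CPM in stellate, sphenopalatine and pelvic_1 neurons, and 18.8, 8.35 and 8.51 CPM in coeliac, lumbar and pelvic_2 neurons. The lumbar level was 0.444 of the coeliac one (0.388 to 0.509). The lumbar and pelvic_2 levels did not differ beyond counting error, at a ratio of 1.02 (0.886 to 1.17). Glial cells had 1.78 to 4.22 CPM of *Unc5a*, from 158 UMIs over the 6 libraries. That was 50.5% of the neuronal level in the lumbar library, beside 3.66% for *Stmn2*, and 19.3% beside 19.0% in the stellate. The share of *Unc5a* was above that of *Stmn2* in every library.

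*Unc5b*, the vascular netrin receptor, was lowest in sphenopalatine neurons. They had 4.16 CPM, against 11.9 CPM in stellate and 26.9 CPM in pelvic_1 neurons, a 0.155-fold level relative to the latter (0.136 to 0.176). Coeliac, lumbar and pelvic_2 neurons had 25.9, 17.2 and 22.1 CPM. Endothelial-like cells had 72.1, 53.7, 60.5, 130, 112 and 70.0 CPM in the stellate, sphenopalatine, pelvic_1, coeliac, lumbar and pelvic_2 libraries, more than any other class of the same library. Their own marker *Pecam1* was at 787 to 1166 CPM there and at 1.90 to 4.73 CPM in neurons.

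*Unc5c*, another repulsive receptor, was highest where *Ntn1* was. Sphenopalatine neurons had 80.7 CPM (78.7 to 82.8), stellate neurons 11.6 CPM and pelvic_1 neurons 27.4 CPM. This was 6.93 times the stellate (6.47 to 7.44) and 2.94 times pelvic_1 (2.75 to 3.15), against 1.11-fold between the pelvic libraries. In round 2 the order was pelvic_2 at 30.5 CPM, lumbar at 22.2 CPM and coeliac at 21.2 CPM, the latter pair not differing beyond counting error. A UMI of *Unc5c* was found in 90.7% of sphenopalatine neurons, in 2.93% of its glial cells at a median of 4725 UMIs, and, after thinning, in 27.4% of the neurons. In those glial cells it stood at 10.8% of the neuronal level, beside 12.8% for *Stmn2*.

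*Unc5d*, the fourth receptor of the family, stood out in the lumbar chain. It was 3.63, 2.03 and 3.30 CPM in stellate, sphenopalatine and pelvic_1 neurons. In round 2 it was 11.4 CPM in lumbar neurons, against 2.61 CPM in coeliac and 2.71 CPM in pelvic_2 neurons. The lumbar level was 4.36 times the coeliac one (3.25 to 5.98).

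**Figure D2:**
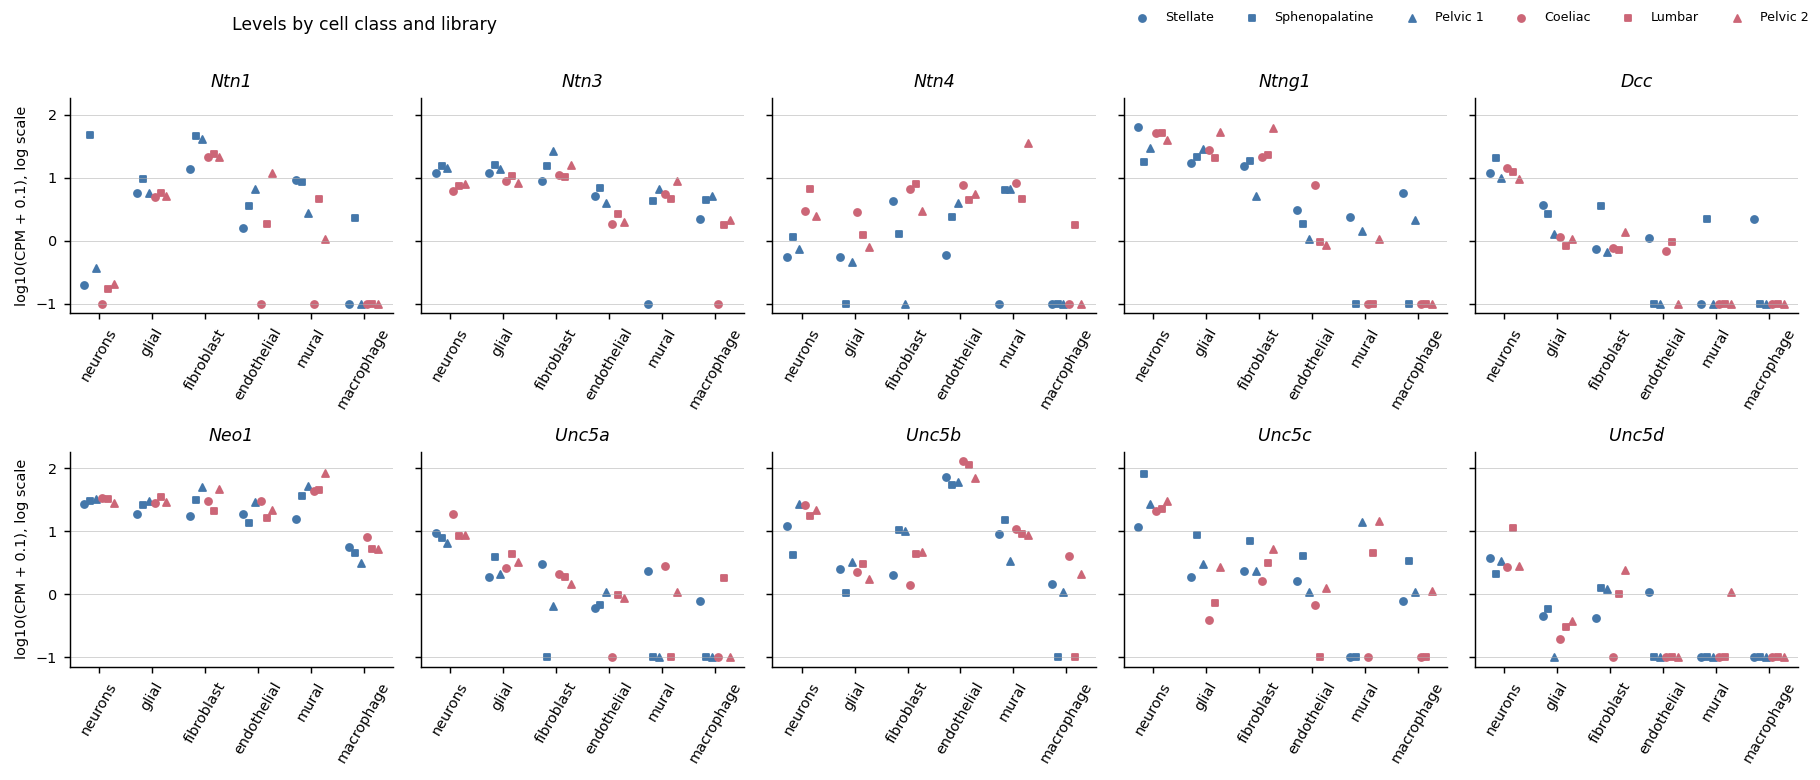
Levels of each gene, as log10 of CPM plus 0.1, in 6 cell classes, with 1 point per library. Points at the bottom are libraries without a UMI. *Unc5b* is highest in endothelial-like cells, at 53.7 to 130 CPM, and *Neo1* lies in all classes.

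To compare cell classes with the library as replicate, UMIs were summed per library and class and fitted with library as a block by edgeR's quasi-likelihood test with Benjamini-Hochberg adjustment. Between neurons and glial cells, 7 of 10 genes were higher in neurons, 1 was lower and 2 did not pass. Of all 14129 genes tested, 75.2% were called in this comparison, 40.3% as higher in neurons and 34.8% as lower, so that 8 calls among 10 genes were near the background. The median log2 fold change was 1.73 over the 10 genes and 0.08 over all genes. Of the 6 receptors, 5 were higher in neurons. *Unc5d* was higher in neurons by 4.23 ± 0.61 on the log2 scale (SE, adjusted p = 2.55e-05) and *Unc5c* by 3.91 ± 0.34 (adjusted p = 2.28e-07). *Dcc* was higher by 3.24 ± 0.31 (adjusted p = 4.70e-07), *Unc5b* by 3.13 ± 0.44 (adjusted p = 2.21e-05) and *Unc5a* by 1.90 ± 0.30 (adjusted p = 6.14e-05). *Ntn4* was higher by 1.57 ± 0.53 (adjusted p = 0.0167), a call lost without the lumbar library (adjusted p = 0.0923) or without pelvic_2 (adjusted p = 0.0585). *Ntng1* was higher by 0.82 ± 0.35 (adjusted p = 0.0487). It lost its call without the stellate (adjusted p = 0.176), coeliac (adjusted p = 0.128) or lumbar library (adjusted p = 0.155). *Ntn3* and *Neo1* did not pass, at 0.03 ± 0.18 and 0.37 ± 0.17.

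*Ntn1* was called lower in neurons than in glial cells, at -3.34 ± 1.23 on the log2 scale (adjusted p = 0.0245), although the libraries did not move together. Neurons exceeded glial cells in the sphenopalatine, at 47.9 against 9.31 CPM, and were below them in the other 5 libraries. Without the sphenopalatine the difference was -5.31 (adjusted p = 3.39e-07). Leaving out any other single library ended the call, with adjusted p from 0.0719 to 0.112.

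Against fibroblast-like cells, 6 of 10 genes were higher in neurons and 2 lower, with 73.9% of all genes called, 40.1% as higher and 33.8% as lower, so that this count too was near the background. *Ntng1*, *Dcc* and all 4 *Unc5* genes were higher, *Dcc* by 3.64 ± 0.37 and *Unc5c* by 3.05 ± 0.36 on the log2 scale. Some libraries differed. In the sphenopalatine *Unc5b* was at 10.45 CPM in fibroblast-like cells, from 9 UMIs, against 4.16 CPM in neurons. *Ntng1* was at 61.4 against 39.8 CPM in pelvic_2 and at 18.6 against 18.0 CPM in the sphenopalatine. In all other libraries these genes were higher in neurons. *Ntn1* was lower at -5.68 ± 1.25 (adjusted p = 0.000975), and *Ntn3* at -0.53 ± 0.19 (adjusted p = 0.0233). The call of *Ntn3* was lost without pelvic_1 (adjusted p = 0.106), coeliac (adjusted p = 0.0791) or pelvic_2 (adjusted p = 0.0916). That of *Ntng1* (0.98 ± 0.37, adjusted p = 0.0294) was lost without the stellate, pelvic_1, coeliac or lumbar library, with adjusted p from 0.0586 to 0.117. *Neo1* and *Ntn4* did not pass, at -0.03 ± 0.18 and -0.79 ± 0.53. Between glial and fibroblast-like cells, 0 of 10 genes were higher and 3 lower in glial cells, with 49.9% of genes called, 26.9% as higher and 23.0% as lower. These were *Ntn4* at -2.36 ± 0.58 (adjusted p = 0.00403), *Unc5d* at -2.15 ± 0.81 (adjusted p = 0.0399) and *Ntn3* at -0.55 ± 0.19 (adjusted p = 0.0302). The *Unc5d* call rests on only 13 UMIs in glial and 27 in fibroblast-like cells, summed over the 6 libraries. At an unadjusted p under 0.05 in edgeR, and in DESeq2, 0 of the 10 genes were higher in glial cells too. Without the stellate library 1 was called higher in glial cells. Of the 3 calls, *Ntn4* held without any single library. *Ntn3* lost its call without pelvic_1, pelvic_2 or the coeliac (adjusted p = 0.128, 0.144 and 0.0702), and *Unc5d* without pelvic_1, pelvic_2 or the lumbar library (adjusted p = 0.0800, 0.318 and 0.0604).

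**Figure D3:**
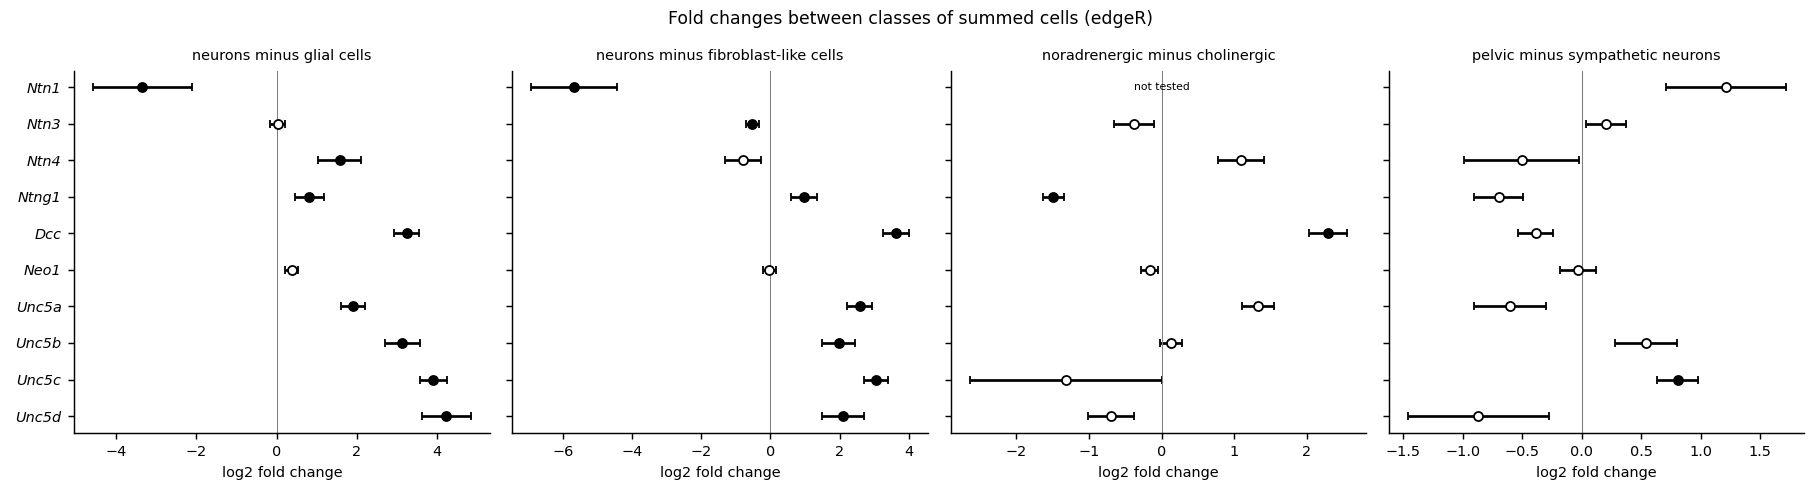
Log2 fold changes of the 10 genes with SE in 4 comparisons of summed cells (edgeR), filled where the adjusted p is under 0.05. *Dcc* and the *Unc5* genes lie to the right, higher in neurons, in the left panels, and *Ntn1* to the left.

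Noradrenergic and cholinergic neurons were compared within the libraries that held at least 20 of both, which were the pelvic libraries and the lumbar chain. Noradrenergic neurons were those with *Th*, the enzyme that starts catecholamine synthesis, above a valley of its histogram, and cholinergic neurons were the others with a UMI of *Chat*, *Slc18a3* or *Slc5a7*. By this rule 2697 of 2724 stellate, 231 of 237 coeliac and 850 of 930 lumbar neurons were noradrenergic, and 1889 of 1903 sphenopalatine neurons cholinergic. Pelvic_1 had 132 noradrenergic and 756 cholinergic neurons, and pelvic_2 had 33 and 329. The lumbar chain had 54 cholinergic neurons, 9 of them with fewer than 4000 UMIs. Near the limit for *Th* lay 60 pelvic_1, 2 pelvic_2 and 39 lumbar neurons.

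*Dcc* was higher in noradrenergic neurons of all 3 libraries. It was 26.4 against 7.09 CPM in pelvic_1, 33.6 against 6.85 CPM in pelvic_2 and 12.7 against 1.33 CPM in the lumbar chain, the last from 5 UMIs. The log2 fold change was 2.29 ± 0.27 (adjusted p = 0.0249). *Ntng1* was lower in noradrenergic neurons of all 3, at 13 against 32.0 CPM, 12.7 against 42.9 CPM and 47.0 against 123 CPM, with a log2 fold change of -1.49 ± 0.15 (adjusted p = 0.0193). These were the only 2 of 9 genes tested that passed, 1 higher and 1 lower, where 3.02% of 13916 genes were called, 1.20% as higher and 1.82% as lower. *Unc5a* was higher in noradrenergic neurons of all 3 libraries, at 15.1 against 4.86 CPM, 19.9 against 7.21 CPM and 8.57 against 4.80 CPM, and missed the threshold (1.33 ± 0.22, adjusted p = 0.0518). Neither call held without pelvic_1 or without pelvic_2, when 0 of all genes passed in edgeR, with 1382 and 1457 at an unadjusted p under 0.05. *Dcc* then had adjusted p of 0.237 and 0.200, and *Ntng1* of 0.213 and 0.153.

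*Unc5c* went opposite ways in the pelvic ganglion and the lumbar chain. In the pelvic libraries it was lower in noradrenergic neurons, at 5.16 against 31.3 CPM in pelvic_1 and at 3.18 against 33.7 CPM in pelvic_2. In the lumbar chain it was higher in noradrenergic neurons, at 23.3 against 3.20 CPM, the latter from 12 UMIs. The fold change over the 3 libraries accordingly had an SE as large as itself (-1.32 ± 1.32, adjusted p = 0.670), and over the pelvic libraries alone it was -2.93. The difference between the lumbar and the pelvic contrast was 5.83 ± 0.43 on the log2 scale in edgeR. It is given as a description, since the lumbar side is 1 library, 1 residual degree of freedom was left and the comparison was chosen after the directions were seen. *Unc5c* in stellate and coeliac noradrenergic neurons was at 11.7 and 21.1 CPM. *Unc5d* was higher in cholinergic than noradrenergic neurons of the lumbar chain, at 24.0 against 10.6 CPM, and low in both classes of the pelvic libraries, at 1.59 to 3.44 CPM.

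**Figure D4:**
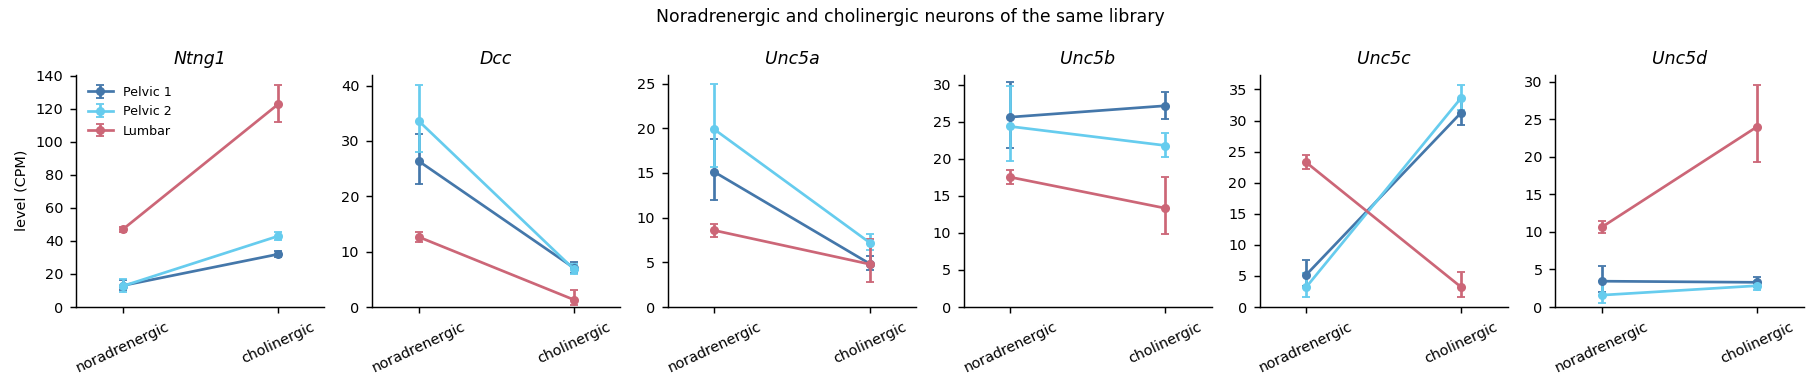
Levels of 6 genes (CPM, axis from 0) in noradrenergic and cholinergic neurons of the same library, with 95% Poisson intervals, lines joining the classes of a library. *Dcc* falls and *Ntng1* rises towards the cholinergic class in all 3 libraries, and the lines of *Unc5c* cross.

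Pelvic neurons were compared with the sympathetic neurons of the stellate, coeliac and lumbar libraries, with sequencing round in the fit. Of the 10 genes 1 was called, *Unc5c*, higher in pelvic neurons by 0.81 ± 0.17 on the log2 scale (edgeR, adjusted p = 0.0164), where 17.5% of 17459 genes were called, 9.78% as higher and 7.71% as lower, so that 1 of 10 was no more than the background. Its pelvic levels of 27.4 and 30.5 CPM lay above the sympathetic levels of 11.6, 21.2 and 22.2 CPM. Among noradrenergic neurons alone the order was the reverse, with 5.16 and 3.18 CPM in the pelvic libraries and 11.7, 21.1 and 23.3 CPM in the stellate, coeliac and lumbar libraries, and no test was run on these. Most pelvic neurons were cholinergic and most sympathetic neurons noradrenergic. The call was lost without the stellate (adjusted p = 0.0982) or without pelvic_1 (adjusted p = 0.0954). It was lost as well without the term for round (adjusted p = 0.284). *Ntng1* was at -0.70 ± 0.21 (adjusted p = 0.0541), its pelvic levels of 29.1 and 39.8 CPM lying below the sympathetic ones of 50.8 to 64.5 CPM. *Dcc* was at -0.39 ± 0.15 (adjusted p = 0.124) and *Unc5b* at 0.54 ± 0.26 (adjusted p = 0.211). The sympathetic group is 3 different ganglia, whose differences enter its spread, and 2 residual degrees of freedom were left.

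Within the pelvic ganglion the genes varied more between clusters of neurons than between the libraries for several genes. Clustering gave 4 clusters with markers of the pelvic classes P1 to P4, which the study had chosen on these samples. Of the others, cluster 3 was led by *Pcp4l1*, *Penk* and *Gng8* and cluster 6 by glial genes, with 79 of its 89 neurons in pelvic_1. Cluster 7, of 18 neurons, was led by collagen genes. The clusters were made from 3000 variable genes. Levels in the clusters are given as a description, as mean ± SD over the 2 libraries.

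*Ntng1* was at 132 ± 26.8 CPM in the P4-like cluster (113 and 151 CPM), followed by 49.2 ± 31.3 CPM in cluster 6 and 40.2 ± 8.04 CPM in the P1-like cluster, and at 11.4 ± 1.89 CPM in the *Th*-rich P3-like cluster. *Dcc* had the reverse order at these ends, with 30.04 ± 5.08 CPM in the P3-like and 1.25 ± 0.0241 CPM in the P4-like cluster. *Unc5a* was also highest in the P3-like cluster, at 17.3 ± 3.67 CPM, where *Unc5c* was lowest, at 4.00 ± 1.17 CPM. *Unc5c* reached 49.1 ± 3.65 CPM in cluster 3 and 40.5 ± 3.20 CPM in the P1-like cluster. *Unc5b* was at 44.2 ± 5.50 CPM in cluster 6 and 41.2 ± 2.16 CPM in the P2-like cluster, and at 2.56 ± 0.565 CPM in the P4-like cluster. *Unc5d* was at 11.6 ± 3.32 CPM in the P4-like cluster and at or below 3.32 CPM in the other clusters with both libraries. The P4-like neurons thus had high *Ntng1* and *Unc5d* with little *Dcc* and *Unc5b*. The part of glial RNA in these levels was not tested. *Neo1* varied from 22.7 to 42.9 CPM over the clusters. *Ntn1* was at most 0.955 CPM, in cluster 6.

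**Figure D5:**
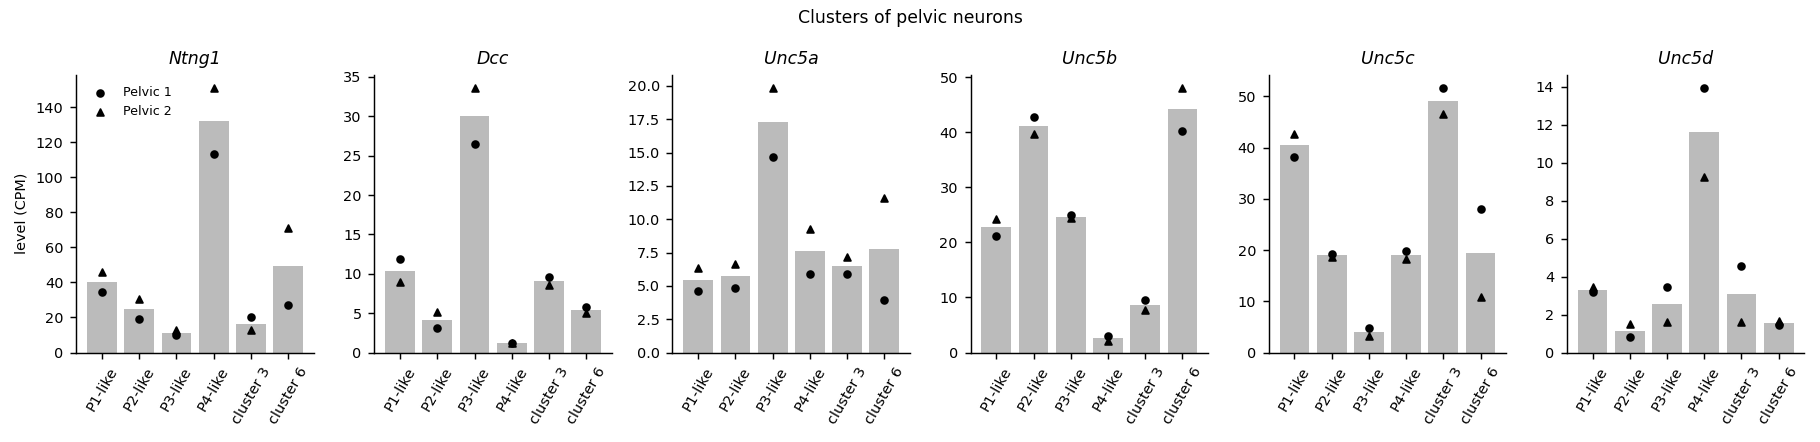
Levels of 6 genes (CPM, axis from 0) in clusters of pelvic neurons, bars giving the mean of the libraries and points pelvic_1 and pelvic_2. *Ntng1* and *Unc5d* peak in the P4-like cluster and *Dcc* and *Unc5a* in the P3-like cluster.

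Other genes of the pathway were taken from a list of 44, without *Tubb3*, which served to select neurons. Of the other 43, 38 were tested between neurons and glial cells. In neurons 16 were higher, 11 were lower and 11 did not pass, with a median log2 fold change of 0.11, beside 0.08 for all genes. These counts were near the 40.3% of all genes called higher and the 34.8% called lower. *Lrrc4c*, the ligand of netrin-G1, and its relative *Lrrc4* were lower in neurons, at -3.08 ± 0.51 (adjusted p = 9.94e-05) and -2.11 ± 0.30 (adjusted p = 2.38e-05), and *Lrrc4c* stood at 44.7 to 142 CPM in glial cells. *Rgma*, a ligand of neogenin, was lower at -4.16 ± 0.44 and *Flrt3*, a ligand of UNC5 receptors, at -3.50 ± 0.40. *Flrt1* was higher in neurons at 1.24 ± 0.17, and *Dscam*, a receptor proposed to act with DCC, at 3.99 ± 0.50. The ubiquitin ligases *Trim9* and *Trim67*, which bind DCC, were higher at 3.05 ± 0.22 and 4.09 ± 0.41. *Dock1*, an exchange factor for RAC1, and *Myo10*, a filopodial motor, were lower at -5.73 ± 0.29 and -4.58 ± 0.29. Against fibroblast-like cells, 19 of 38 were higher and 12 lower in neurons, near the 40.1% and 33.8% of all genes.

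Between noradrenergic and cholinergic neurons 2 of 40 genes of the list passed, a count near the background of 3.02% of all genes. *Rgmb*, a ligand of neogenin, was higher in noradrenergic neurons (0.88 ± 0.13, adjusted p = 0.0416), and *Flrt3* was lower (-1.61 ± 0.25, adjusted p = 0.0465). Between pelvic and sympathetic neurons 9 of 42 were higher and 5 lower in pelvic neurons, where 9.78% of all genes were called higher and 7.71% lower. *Adgrl2*, a latrophilin, was higher by 3.41 ± 0.23 (adjusted p = 9.69e-05), *Dscaml1* by 3.26 ± 0.35 (adjusted p = 0.000769), *Rgma* by 2.35 ± 0.50 (adjusted p = 0.0149) and *Dscam* by 1.75 ± 0.21 (adjusted p = 0.00120). *Rgmb* was lower at -1.79 ± 0.16 (adjusted p = 0.000331), and *Draxin*, a netrin-binding repellent, at -1.93 ± 0.29 (adjusted p = 0.00333). As most pelvic neurons were cholinergic and most sympathetic neurons noradrenergic, this fit did not part ganglion from transmitter class. Between noradrenergic and cholinergic neurons, *Adgrl2* was at -1.78, *Rgma* at -2.26 and *Dscam* at -0.90 on the log2 scale, none of which passed. *Dscaml1*, higher in pelvic neurons, was also higher in noradrenergic ones, at 1.37, and *Draxin* was at 0.07, neither of them passing.

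For each gene, the genes with the most similar levels were sought over the 36 sums of library and class, by Pearson correlation of log2(CPM + 1). These sums share libraries and depth, and the coefficients are descriptive. The closest was *Gria4*, an AMPA receptor subunit, for *Ntng1* (r = 0.917), *Pcsk2os1* for *Dcc* (r = 0.936) and *Hecw2* for *Unc5b* (r = 0.923). It was *Ahi1* for *Unc5a* (r = 0.887), *Bod1* for *Neo1* (r = 0.876), *Shisal1* for *Unc5c* (r = 0.856) and *Pafah1b3* for *Unc5d* (r = 0.858). For *Ntn1* it was *Dlk1* (r = 0.803), for *Ntn3* *Clip4* (r = 0.801) and for *Ntn4* *Pawr* (r = 0.779).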

How the data were processed

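The deposited values are counts made by the authors with Cell Ranger 6.0.1 on mm10, as the submitters' processing notes give it: UMIs per gene and droplet, not normalized. Each library was 1 sample, and nothing states how many pups it pooled. The filter on cells kept those in which 1500 to 11000 genes were detected, with a mitochondrial share below 15%. Counts were normalized with sctransform 0.4.2 (R 4.3.3) for the neuronal threshold of 3 and the glial limit of 1.15, a valley of the histogram. Non-neuronal cells and pelvic neurons were clustered on 30 principal components in Python 3.11.15 and named from marker lists. Doublets were kept, and an alternative removed the 12.1% of cells marked as simulated doublets.

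Summed counts were tested with edgeR 4.0.16 (quasi-likelihood, TMM, low counts filtered), with Benjamini-Hochberg adjustment over all genes and a threshold of 0.05. Replicates other than the pelvic ones are different ganglia, so p-values measure the spread between these libraries. The block pairs classes of 1 suspension. The tests were also tried on counts simulated from the same sums, with changes placed in genes above the median level. Of 2-fold changes, 63.2% were recovered for noradrenergic against cholinergic neurons and 87.1% to 95.3% in the other comparisons. Changes in genes of lower level were not tried, and the simulated libraries shared 1 base level per gene. These shares therefore do not describe the weaker of the 10 genes. Alternatives were DESeq2 1.42.0, other size factors, no filter, other cell selections, thinning, no block and leaving out each library. Tests of a difference between groups of libraries were added after values were seen, with 1 library on 1 side. A call of theirs served only to flag *Unc5c* for a closer look, and no conclusion is drawn from them. Genes named are the 10 netrin genes and, from the list of 44, those that passed or reached 50 CPM in a class, of which examples are given. The genes, lists and markers were chosen with earlier results of these data known. Some items are not reported here.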

Additional observations from a re-analysis of the deposited data

Results flagged for a closer look

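The contrast of noradrenergic with cholinergic neurons differed between the lumbar chain and the pelvic ganglion for *Unc5c*, by 5.83 on the log2 scale, the lumbar difference being positive and both pelvic differences negative. The lumbar side is 1 library and the comparison was chosen after these directions were seen, so this is a description. *Ntn3* was 1.32 CPM higher in noradrenergic than cholinergic neurons of the lumbar library and lower in both pelvic libraries. The test of that difference, with the same limits, did not pass (edgeR, adjusted p = 0.107).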

How the results depend on the processing

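Of the 609 values of the 10 genes under alternatives, 521 kept direction and side of the threshold, 43 lost and 30 gained a call, 14 changed sign without a call, and 1 turned over: without the replicate block, *Ntn1* in neurons against glial cells was 0.62 (adjusted p = 0.673). Without the replicate block, calls among the 10 genes fell from 8 to 5 both for neurons against glial cells and against fibroblast-like cells, and from 2 to 0 for noradrenergic against cholinergic neurons, where all calls fell from 420 to 60. For glial against fibroblast-like cells, 3 calls became 5 with DESeq2, 5 with neurons selected on log counts, 5 with doublets removed and 1 with no filter, and leaving out single libraries gave 1 (without pelvic_1 or pelvic_2) to 4. For noradrenergic against cholinergic neurons, all calls became 1194 with DESeq2 and 1228 with no filter. Leaving out single libraries gave 0 (without pelvic_1 or pelvic_2) to 3012 (without lumbar), and 0 to 5 among the 10 genes. For pelvic against sympathetic neurons, 1 call became 2 with DESeq2, 2 with doublets removed, 5 with no filter and 0 with no term for round, where all calls fell from 3054 to 1047. Leaving out single libraries gave 0 (without stellate or pelvic_1) to 4 (without coeliac) among the 10, and 746 to 4164 in all. The causes were not tested. In neurons, the 45 differences between ganglia of a round whose interval lay off 1 kept their direction under 5 other ways of selecting or averaging neurons. Leaving out 1 pelvic library leaves that arm with a lone library, assumed to vary like the others. Few UMIs limit *Ntn1* and *Ntn4*, which rest on under 100 UMIs in 5 of 6 neuronal sums each. For *Ntn1* these sums were not all shallower, with 79382522 UMIs in stellate and 76019261 in sphenopalatine neurons. *Unc5d* outside neurons is limited as well, with 13 UMIs in glial and 27 in fibroblast-like cells of all libraries together.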
